A study of Mus musculus with 9 samples.

Results

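Transcripts of the Rab GTPases were followed in Mac1+ bone marrow cells of mice. Members were all gene symbols in the deposited table made of "Rab" and a number, with an optional letter, such as Rab7 and Rab27a. This gave 57 of 23420 symbols. Mac1 is the integrin alpha M chain encoded by Itgam, a surface marker of granulocytes, monocytes and some dendritic cells. RNA was sequenced in 9 libraries, each from 100 cells that were sorted by flow cytometry and lysed at once. Libraries were made by Smart-seq2, which copies whole transcripts and loses their strand. All mice were C57BL/6 and homozygous for floxed Ezh2 (fl/fl) and floxed Runx1 (fl/fl), the genes of a histone methyltransferase and of a transcription factor of blood cells. The DKOITD group (n = 4) also carried Rag1Cre+ and Flt3 ITD/+, an allele of the receptor kinase Flt3 with an internal tandem duplication. The ITD group (n = 2) carried Flt3 ITD/+ without Cre. The group named WT (n = 3) carried the floxed alleles alone, with neither Cre nor ITD. Rag1 is a gene of developing lymphocytes, and the labels do not say in what share of Mac1+ cells the floxed exons were removed. They give no age or disease state and do not say whether each library came from its own animal. The p-values therefore measure only the spread between these libraries.

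Rab proteins are small GTPases that switch between a GTP-bound form on a membrane and a GDP-bound form held in the cytosol, and each marks particular vesicles and recruits the proteins that move, tether or fuse them. In granulocytes, Rab27a and relatives act in the docking and release of secretory granules, whereas Rab5 and Rab7 act one after the other on the path from early endosomes to late endosomes and lysosomes. In dendritic cells and macrophages, endosomal Rab proteins act on the compartments in which engulfed material is broken down and loaded for presentation.

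The RefSeq windows around the annotated starts (250 bases before to 50 after, build GRCm38.p6, the reference's name for mm10) of 4 members that the comparisons turn on, 1 window each, are printed 5′ to 3′ in the direction of transcription. Rab27a and Rab3d are the granule-linked pair of the results, Rab5a and Rab7 the endosomal one. Capitals mark the motifs found on either strand.
Rab27a, chr9:73044560-73044859, plus strand: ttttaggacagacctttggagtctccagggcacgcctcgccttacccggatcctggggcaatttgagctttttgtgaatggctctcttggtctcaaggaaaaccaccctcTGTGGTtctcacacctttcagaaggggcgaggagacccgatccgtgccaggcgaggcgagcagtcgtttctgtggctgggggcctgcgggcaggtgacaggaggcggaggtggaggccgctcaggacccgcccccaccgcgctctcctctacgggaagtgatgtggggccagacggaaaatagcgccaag
Rab3d, chr9:21918134-21918433, minus strand: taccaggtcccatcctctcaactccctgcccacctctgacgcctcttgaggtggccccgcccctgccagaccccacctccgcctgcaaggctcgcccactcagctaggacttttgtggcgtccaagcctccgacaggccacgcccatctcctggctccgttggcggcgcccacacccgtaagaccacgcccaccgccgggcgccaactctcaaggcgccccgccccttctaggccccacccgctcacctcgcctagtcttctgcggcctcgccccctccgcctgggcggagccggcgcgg
Rab5a, chr17:53478984-53479283, plus strand: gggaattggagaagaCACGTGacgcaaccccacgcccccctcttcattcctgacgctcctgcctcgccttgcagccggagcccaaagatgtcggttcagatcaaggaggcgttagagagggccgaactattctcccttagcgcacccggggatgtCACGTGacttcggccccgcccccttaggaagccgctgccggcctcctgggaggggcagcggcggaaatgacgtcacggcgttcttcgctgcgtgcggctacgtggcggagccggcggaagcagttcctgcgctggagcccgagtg
Rab7, chr6:88045221-88045520, minus strand: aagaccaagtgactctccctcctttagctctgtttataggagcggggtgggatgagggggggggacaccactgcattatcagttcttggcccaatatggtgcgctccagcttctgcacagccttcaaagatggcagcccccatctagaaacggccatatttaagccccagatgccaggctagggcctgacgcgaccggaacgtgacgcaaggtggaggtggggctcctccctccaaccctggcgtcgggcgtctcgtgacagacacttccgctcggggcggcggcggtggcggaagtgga
The capitals in Rab27a are TGTGGT, the core letters bound by RUNX factors, at -140 from the start. Those in Rab5a are a pair of E-boxes, CACGTG, and the printed Rab3d and Rab7 windows held none of the letters searched. A further Rab27a window, around a start inside the gene (chr9:73063898-73064197), held CACGTG at -246, and a further Rab7 window held none. Windows were found for 46 of the 57 members (58 windows, since some genes have several starts). TGTGGT was in 17.2% of Rab windows and 16.8% of all 32851 windows, and CACGTG in 10.3% against 7.15%. The PU.1 letters GAGGAAGT were in 3.45% against 3.2%, and the C/EBP palindrome TTGCGCAA was in 0 Rab windows and 0.183% of all windows. None of the 4 sets of letters contains another, and a match describes these windows only. Rab30, Rab37, Rab38 and Rab44 had no entry.

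The libraries differed in ways that touch the Rab results. Reads recovered from the steps of the RPKM values ranged from 2824091 in DKOITD 2 to 23114869 in WT 1. Of 11 tested neutrophil markers, 8 fell in DKOITD against WT and 0 rose. Without passing, Retnlg was lower (log2 difference -2.90, limma adjusted p = 0.0545), Elane level (0.04, adjusted p = 0.985) and Mpo higher (2.81, adjusted p = 0.354). Mpo measured 26.2 to 1131 RPKM in DKOITD and 0 to 872 in WT. S100a8 was the largest part of the summed neutrophil RPKM. That sum was 36579 to 263434 in DKOITD, 679308 to 722500 in ITD and 868622 to 1176970 in WT. Of 10 dendritic markers, such as Cd74 and H2-Aa, all 10 rose in DKOITD against WT, with sums of 9438 to 38116 in DKOITD, 4210 to 11351 in ITD and 44.3 to 1205 in WT. The sums of 8 monocyte markers were 2142 to 3409, 3758 to 3985 and 2786 to 3318 in that order, with 2 higher and 1 lower. Of plasmacytoid dendritic markers 3 of 4 tested rose. Among lymphoid markers Pax5, Cd3e, Gzmb and Prf1 were listed at 0 in all 9 libraries, 1 of 2 tested B cell markers rose, 0 of 3 tested T cell markers passed, and the single NK marker tested fell. Of tested markers of eosinophils, basophils and mast cells (1) and of red cells and platelets (2), 0 passed. Itgam, which encodes Mac1, was above 0 in every library but fell in DKOITD, at 10.98 to 39.03 RPKM against 78.1 and 97.3 in ITD and 90.3 to 143 in WT (-2.11 ± 0.40 against WT, SE, limma adjusted p = 0.00813). Ezh2 ranged from 1.54 to 18.1 RPKM in DKOITD and from 2.05 to 12.4 in WT, while Runx1 ranged from 10.4 to 17.6 and from 3.53 to 13.02, and both ITD libraries held 4.42. DKOITD thus overlapped WT in both genes and lay above ITD in Runx1 (1.52 ± 0.52, SE, limma adjusted p = 0.179), and whole-gene RPKM does not report on the floxed exons. The part of these marker differences in the Rab results was not tested.

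Most Rab genes were transcribed in these cells. Of the 57 members, 35 were above 0 in all 9 libraries and 26 averaged at least 10 RPKM (reads per kilobase of gene, scaled to the depth of the library). Rab17, Rab25, Rab33a, Rab3b, Rab40b and Rab9b, which include regulators of epithelial and neuronal traffic, were listed at 0 in every library. The test kept 43 members with at least 1 RPKM in at least 2 libraries. The 8 others, Rab15, Rab26, Rab27b, Rab34, Rab39b, Rab3c, Rab42 and Rab6b, were above 0 in some library but did not reach 1 RPKM in 2. Rab30, Rab38 and Rab39 passed the filter through DKOITD alone, so they could only differ upwards. Rab13 passed through ITD and WT alone, so in DKOITD it could only differ downwards. The 5 highest members that did not pass the test in any comparison were Rab14, Rab32, Rab11a, Rab4b and Rab8a, with means over 9 libraries of 103, 101, 98.9, 86.0 and 84.0 RPKM. Rab14, Rab11a and Rab4b serve recycling and endosome-to-Golgi traffic, Rab8a traffic to the cell surface and Rab32 lysosome-related organelles.

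Between DKOITD and WT, 13 of the 43 tested Rab genes passed limma's test at a Benjamini-Hochberg adjusted p under 0.05 (30.2% of members, against 12.7% of all 10868 genes tested). The 7 that fell were Rab3d, Rab13, Rab37, Rab44, Rab27a, Rab24 and Rab6a, and the 6 that rose were Rab7, Rab39, Rab2b, Rab5a, Rab30 and Rab38. Over all genes 5.27% fell and 7.43% rose. The median log2 difference was -0.08 over the tested Rab genes and 0.17 over all genes tested. DKOITD and WT libraries did not overlap for 15 members, 5 higher and 10 lower in DKOITD (25.0% of all genes, 14.1% higher and 10.9% lower). RNA was pooled from 100 cells a library, so fewer cells of a type and less RNA per cell cannot be told apart. Scaling each library by its own recovered reads moved the median of all genes to 0.74, and the split of Rab calls then was 8 higher and 3 lower (Rab3d, Rab13 and Rab37) in place of 6 higher and 7 lower. Under that scaling the share called was 25.0% of 44 tested Rab genes and 25.3% of all genes, so the Rab share no longer stood above that of all genes. The sample names hold a number whose meaning the labels do not give: 228, 267 and 274 in DKOITD 1 to 3, and 385 or above in the other 6 libraries. With that split as a term, 0 Rab genes passed, beside 0.0368% of all genes. The difference from WT then rests on DKOITD 4, the only DKOITD library in the number range of WT.

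**Figure D1:**
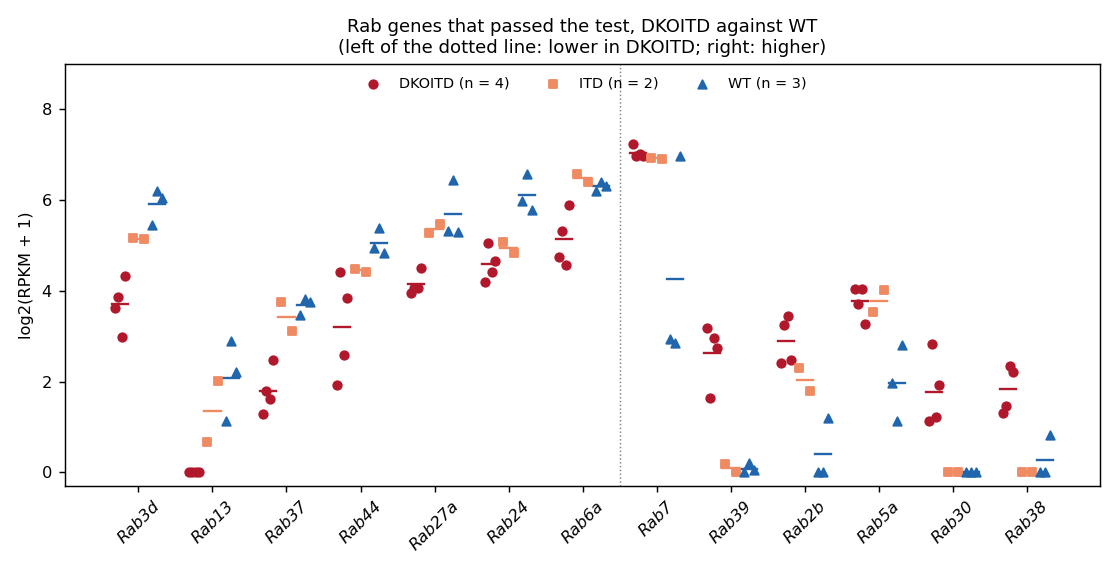
Level of each of the 13 Rab genes that passed DKOITD against WT, on a log2(RPKM + 1) axis, with 1 point per library and a line at each group's mean (DKOITD n = 4, ITD n = 2, WT n = 3). Genes left of the dotted line were lower in DKOITD and those right of it higher. Rab7 is the gene in which WT 3 sits with DKOITD, at 125 RPKM, while WT 1 and WT 2 are at 6.68 and 6.23.

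Of the 7 falls, 4 were of granule-linked members. This class had 11 genes, of which 7 were tested. The 4 that fell stand beside 5.27% of all genes, and the 1 that rose, Rab38, had passed the filter through DKOITD alone. The median log2 difference was -1.55 over these 7 and 0.17 over all genes. Rab27a, which docks secretory granules at the plasma membrane, lies at chr9:73044854-73097629 in mm10. It measured 14.5, 15.6, 15.7 and 21.7 RPKM in DKOITD 1 to 4, 37.4 and 43.0 in ITD 1 and 2, and 39.1, 86.2 and 38.5 in WT 1 to 3. All 4 DKOITD libraries lay below all others, and WT 2 stood highest. Rab27a fell by 1.55 ± 0.36 (SE) on the log2(RPKM + 1) scale (limma, adjusted p = 0.0178, DKOITD n = 4, WT n = 3). It did not pass without DKOITD 1 or without DKOITD 3 (adjusted p = 0.0519 and 0.0548), nor when scaled by recovered reads (-0.81, adjusted p = 0.0899), and with the sample-number term it was -1.19 (adjusted p = 0.512). Its paralogue Rab27b was listed at 0 in 8 libraries and at 0.0121 RPKM in WT 3, so the pair was carried by Rab27a in all 3 groups.

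Rab3d, a Rab of secretory granules in exocrine and blood cells, gave the smallest p of all members. It measured 11.3, 13.6, 6.95 and 19.0 RPKM in DKOITD, 34.6 and 34.4 in ITD and 42.9, 72.4 and 65.1 in WT. The 3 groups were in order without overlap, with ITD between the others. Rab3d fell by 2.20 ± 0.37 (SE) on the log2 scale (limma, adjusted p = 0.00486). The call held with each single library left out, under the recovered-read scaling (-1.47, adjusted p = 0.011), and without both WT 1 and WT 2 (-2.35, adjusted p = 0.0415), but not with the sample-number term (-1.58, adjusted p = 0.407). Rab3a, its relative best known from synaptic vesicles, measured 1.32 to 4.46 RPKM in DKOITD and 0 to 4.69 in WT, which overlapped.

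Rab37, a Rab of exocytic granules described in mast cells, measured 1.45, 2.44, 2.04 and 4.59 RPKM in DKOITD, 12.5 and 7.598 in ITD and 10.1, 13.01 and 12.5 in WT. DKOITD lay below both other groups, which overlapped each other. Rab37 fell by 1.89 ± 0.44 (SE) (limma, adjusted p = 0.0199), and the call was lost without DKOITD 1 or DKOITD 3 (adjusted p = 0.0621 and 0.0613). Rab44, an unusually large Rab with calcium-binding EF hands, measured 2.81, 20.5, 5.04 and 13.2 RPKM in DKOITD, 21.3 and 20.3 in ITD and 29.8, 40.5 and 27.7 in WT. DKOITD 2 reached the level of the ITD libraries but stayed below WT. Rab44 fell by 1.86 ± 0.54 (SE) (limma, adjusted p = 0.0419). It passed without DKOITD 2 or DKOITD 4 and not without any of the other 7 libraries in turn (adjusted p = 0.0537 to 0.116).

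The pair Rab32 and Rab38, which act on melanosomes and other lysosome-related organelles, showed unlike levels. Rab32 was among the most abundant members at 88.1, 111, 71.9 and 65.2 RPKM in DKOITD, 92.5 and 107 in ITD and 128, 117 and 128 in WT. DKOITD lay below WT in every library, but the log2 difference of -0.59 ± 0.27 (SE) did not pass (limma, adjusted p = 0.160). Rab38 measured 1.47, 1.73, 4.04 and 3.64 RPKM in DKOITD, was listed at 0 in both ITD libraries and in WT 1 and WT 2, and was 0.766 in WT 3. It rose by 1.55 ± 0.44 (SE) (limma, adjusted p = 0.0402) at a level far below that of Rab32 per kilobase. The Rab38 call passed without DKOITD 2 or WT 3 and was lost without any of the other 7 libraries in turn (adjusted p = 0.0574 to 0.117). Rab26, a Rab of secretory granule maturation, was not tested and was above 0 in DKOITD 1 (4.16 RPKM) and DKOITD 3 (0.193) alone.

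**Figure D2:**
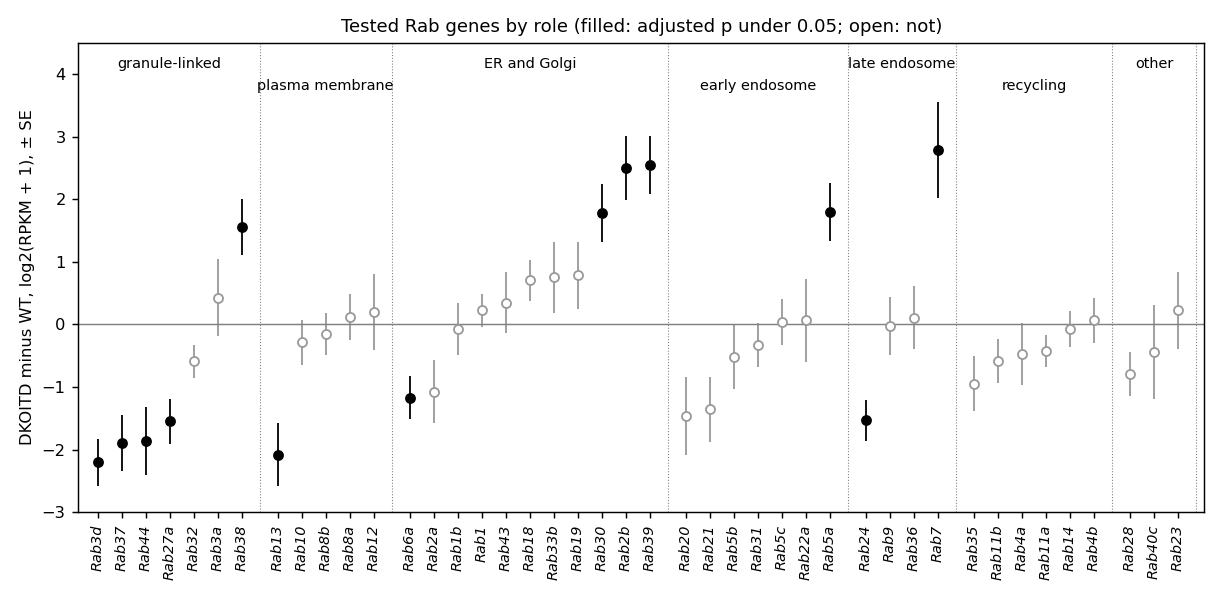
Difference DKOITD minus WT in log2(RPKM + 1) for each of the 43 tested Rab genes, grouped by the compartment they are known for. Points are limma estimates, bars are ± 1 standard error, and filled points have an adjusted p under 0.05. Among granule-linked genes 4 filled points lie below 0 and Rab38 lies above it.

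Late endosomal members did not move as a group: of 4 tested, Rab7 rose, Rab24 fell, and the median log2 difference was 0.04. Rab7, which drives fusion of late endosomes with lysosomes, lies at chr6:87999106-88045270. It measured 149, 124, 128 and 124 RPKM in DKOITD, 121 and 119 in ITD and 6.68, 6.23 and 125 in WT. WT 3 was within the DKOITD range, and the difference came from WT 1 and WT 2. Rab7 rose by 2.79 ± 0.77 (SE) on the log2 scale (limma, adjusted p = 0.0357), and without both WT 1 and WT 2 the difference was 0.07 (adjusted p = 0.918). Of the single libraries, leaving out WT 3 kept the call, at 4.14, and leaving out any of the other 8 ended it (adjusted p = 0.0505 to 0.130). WT 1 and WT 2 gave 78 and 44 Rab7 reads beside 2177 and 2897 Rab27a reads, and both were read more deeply than WT 3, which gave 901 Rab7 reads.

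The same pair of libraries was low together in other genes as well. WT 1 and WT 2 were both more than 10-fold below each of the 7 other libraries for 157 tested genes, against 1 to 108 genes for the other 35 pairs of libraries. Among these 157, 4 had at least 10 RPKM in each of the 7 others: Rab7, Mrps18a, Mir3064 and 5430417L22Rik (0 to 4 genes for the other pairs). Rab7 had the highest floor in the others at 119 RPKM, and Rab2b was also among the 157. The annotation holds a pseudogene Rab7-ps1, and the Rab7 exons share 204 bases with Gm5577 on the other strand. The sources used here do not say how reads shared with such copies were counted, so the Rab7 level is uncertain to that extent.

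Rab24, linked to autophagy and late endosomes, measured 17.3, 32.3, 20.3 and 24.2 RPKM in DKOITD, 32.5 and 27.4 in ITD and 62.2, 94.1 and 54.2 in WT. Both groups with Flt3 ITD lay below WT and overlapped each other. Rab24 fell by 1.53 ± 0.33 (SE) (limma, adjusted p = 0.0131) and kept the call with each single library left out, though not under the recovered-read scaling (-0.79, adjusted p = 0.0891). Its exons share 1258 bases with Prelid1 on the other strand, and unstranded reads of the pair cannot be told apart. Rab9, which returns receptors from late endosomes to the Golgi, measured 18.3 to 25.8 RPKM in DKOITD and 9.83 to 45.6 in WT, and the log2 difference was -0.03 ± 0.47 (SE, adjusted p = 0.977).

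The ratio of Rab27a to Rab7 within a library sets the granule Rab beside the endosomal one. Its absolute size rests on gene lengths that are not given, so it is compared only between libraries. It was 0.0976, 0.126, 0.123 and 0.174 in DKOITD 1 to 4, 0.311 and 0.361 in ITD, and 5.86, 13.8 and 0.309 in WT 1 to 3. The DKOITD libraries had the lowest ratios, and WT 3 was level with ITD. On the log2 scale, with 1 RPKM added to both genes, the means were -2.90 ± 0.33 (SD, n = 4) in DKOITD, -1.55 ± 0.15 (SD, n = 2) in ITD and 1.44 ± 2.76 (SD, n = 3) in WT. DKOITD was lower than WT by a difference of -4.34 (two-sided exact permutation test, p = 0.0286, which is the least that 35 splits allow, and 0.0857 after Benjamini-Hochberg adjustment over 3 comparisons). Leaving out WT 1 and WT 2 together gave -1.23 (exact permutation test, p = 0.2, the smallest then possible). DKOITD against ITD gave -1.34 (exact permutation test, p = 0.0667, the smallest of 15 splits, adjusted 0.1), and ITD against WT gave -2.99 (exact permutation test, p = 0.4, where 0.1 is the smallest possible).

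**Figure D3:**
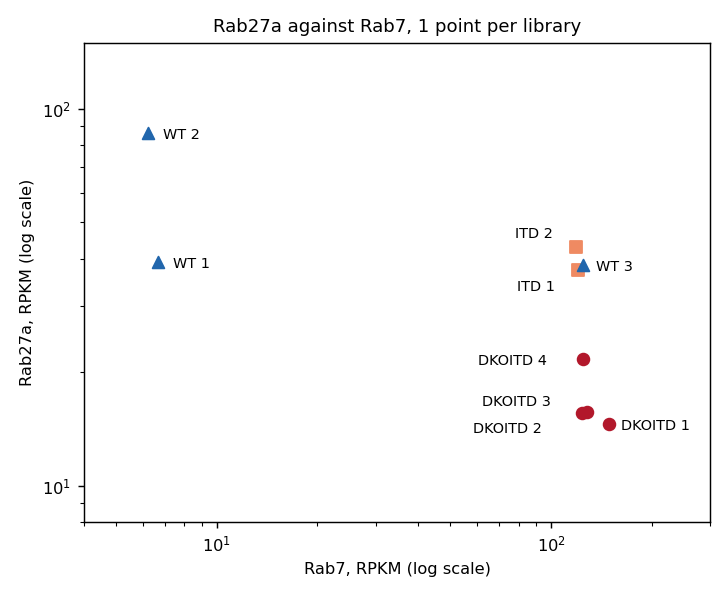
Rab27a against Rab7 in RPKM, both axes logarithmic, with 1 point per library (circles DKOITD, squares ITD, triangles WT). The 4 DKOITD libraries lie between 14.5 and 21.7 RPKM of Rab27a, below the other 5. WT 1 and WT 2 stand apart on the Rab7 axis at 6.68 and 6.23 RPKM, while all other libraries lie between 119 and 149.

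Of 7 early endosomal members, all tested, Rab5a rose and none fell, and the median log2 difference was -0.33. Rab5a, which controls fusion of incoming vesicles with early endosomes, measured 15.5, 12.1, 15.4 and 8.61 RPKM in DKOITD, 10.6 and 15.2 in ITD and 2.94, 1.20 and 5.95 in WT. WT lay below both groups that carry Flt3 ITD. Rab5a rose by 1.80 ± 0.47 (SE) (limma, adjusted p = 0.0291), and the call was lost without any one of DKOITD 1, 2 or 3, WT 1 or WT 2 (adjusted p = 0.0536 to 0.0915). The annotation also holds a pseudogene Rab5a-ps, a possible source of shared reads. Of its paralogues, which did not pass, Rab5b differed by -0.51 ± 0.52 (SE, adjusted p = 0.528) and Rab5c, at 33.4 to 54.1 RPKM in DKOITD and 27.9 to 72.0 in WT, by 0.04 ± 0.37 (SE, adjusted p = 0.952). Among members that did not pass, Rab21 and Rab20 had the smallest p. Rab21, which carries integrins inward, was 10.999 to 23.4 RPKM in DKOITD and 16.8 to 91.3 in WT, and differed by -1.36 ± 0.52 (SE, adjusted p = 0.104) on the log2 scale. Without WT 3 it passed (-2.01, limma adjusted p = 0.0155), and without WT 2 it was -0.82 (adjusted p = 0.334). Rab20, a Rab of phagosomes, was 1.66 to 16.9 RPKM in DKOITD and 11.1 to 30.4 in WT, a difference of -1.46 ± 0.62 (SE, adjusted p = 0.138).

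Of 11 tested members of the endoplasmic reticulum and Golgi, Rab2b, Rab30 and Rab39 rose and Rab6a fell, Rab30 and Rab39 having passed the filter through DKOITD alone, with a median log2 difference of 0.70. Rab39, which acts at the Golgi and on phagosomes, measured 8.04, 2.12, 6.78 and 5.64 RPKM in DKOITD, 0.143 and 0 in ITD and 0, 0.149 and 0.0290 in WT. It was near 0 in every library outside DKOITD. Rab39 rose by 2.55 ± 0.47 (SE) (limma, adjusted p = 0.00683) and kept the call with each single library left out. Against ITD its difference of 2.53 ± 0.53 (SE) had the smallest adjusted p of any Rab gene in that comparison, 0.0613, and did not pass.

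Rab30, a Golgi Rab, measured 1.20, 6.10, 1.34 and 2.77 RPKM in DKOITD and was listed at 0 in all ITD and WT libraries. Its rise of 1.78 ± 0.47 (SE, limma, adjusted p = 0.0291) depends on the pseudocount and is no bound (4.59 with 0.1 in place of 1). It was lost without DKOITD 4, WT 1 or WT 2 (adjusted p = 0.0525, 0.0676 and 0.0757). Rab2b, a Golgi Rab related to Rab2a, measured 4.27, 8.54, 9.96 and 4.53 RPKM in DKOITD, 3.94 and 2.44 in ITD and 0, 0 and 1.28 in WT. The groups were in order without overlap. Rab2b rose by 2.50 ± 0.51 (SE) (limma, adjusted p = 0.0109), kept the call with each single library left out and lost it without both WT 1 and WT 2 (1.70, adjusted p = 0.178). Its exons share 2469 bases with genes on the other strand, among them Tox4.

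Rab6a, which runs traffic from endosomes and the Golgi back to the endoplasmic reticulum, was the abundant member of this class that fell. It measured 25.8, 38.8, 22.7 and 58.4 RPKM in DKOITD, 94.3 and 83.6 in ITD and 72.2, 83.3 and 78.4 in WT. DKOITD lay below both other groups. Rab6a fell by 1.17 ± 0.34 (SE) (limma, adjusted p = 0.0425), a call that passed without DKOITD 4 and was lost without any of the other 8 libraries in turn (adjusted p = 0.058 to 0.121) and under the recovered-read scaling (-0.42, adjusted p = 0.326). Its exons share 708 bases with Mrpl48 on the other strand.

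Among 5 plasma membrane members, all tested, Rab13 fell, having passed the filter through ITD and WT alone. Rab13, known from tight junctions and cell-surface traffic, was listed at 0 in all 4 DKOITD libraries, and measured 0.597 and 3.03 RPKM in ITD and 1.20, 6.44 and 3.63 in WT. Its log2 difference of -2.08 ± 0.51 (SE, limma, adjusted p = 0.0229) depends on the pseudocount and is no bound (-4.98 with 0.1). The call was lost without DKOITD 1, DKOITD 3 or WT 2 (adjusted p = 0.0613, 0.0639 and 0.0775). Rab8a measured 47.9 to 122 RPKM in DKOITD and 51.4 to 101 in WT, a difference of 0.12 ± 0.37 (SE, adjusted p = 0.853).

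None of the 6 tested recycling members passed in this comparison (12.7% of all genes did), and 0 had an unadjusted p under 0.05 (30.2% of all genes). With so few genes these counts do not set the class apart from all genes. The log2 difference was below 0 for 5 of the 6, with a median of -0.45. Rab11a, the main Rab of the recycling endosome, measured 65.5 to 87.8 RPKM in DKOITD, 123 and 166 in ITD and 96.5 to 104 in WT. The groups did not overlap and ITD was highest, yet the DKOITD-WT difference of -0.43 ± 0.26 (SE) had an adjusted p of 0.277. Rab14 (-0.08 ± 0.28, SE, adjusted p = 0.883) and Rab4b (0.07 ± 0.36, SE, adjusted p = 0.924) overlapped between DKOITD and WT. Of the 3 tested members in no other class, Rab23, Rab28 and Rab40c, 0 passed.

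The make-up of the Rab transcript pool was also compared per library. Summed Rab RPKM was 1176 ± 90.2 (SD, n = 4) in DKOITD, 1512 ± 82.3 (SD, n = 2) in ITD and 1493 ± 202 (SD, n = 3) in WT. Granule-linked members made up 10.05 to 13.21% of it in DKOITD, 13.77 to 14.06% in ITD and 17.42 to 20.43% in WT, so the 3 groups did not overlap. Late endosomal members made up 13.62 to 16.98% in DKOITD, 10.13 to 11.14% in ITD and 6.741 to 12.79% in WT, where WT 1 and WT 2 hold little Rab7, and DKOITD shares overlapped neither other group. Their summed RPKM did overlap with WT, at 170 to 189 in DKOITD and 110 to 202 in WT, with WT 3 highest. The shares of recycling members overlapped between all groups, at 20.76 to 24.61%, 22.81 to 28.22% and 18.54 to 26.16%. These shares are descriptions and carry no test.

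**Figure D4:**
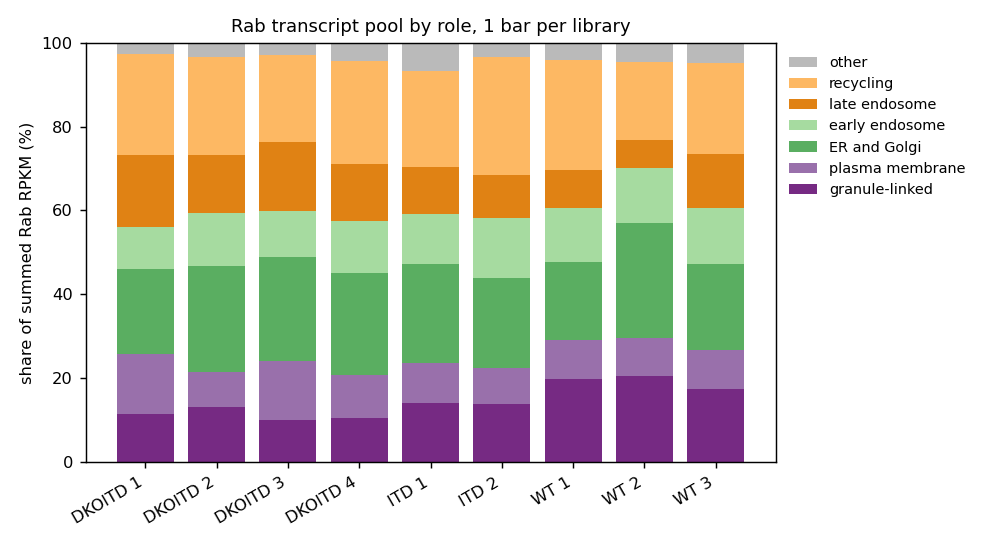
Share of the summed Rab RPKM taken by each class of Rab genes, in percent, with 1 stacked bar per library. The granule-linked share at the foot of each bar is 10.05 to 13.21% in the 4 DKOITD libraries and 17.42 to 20.43% in the 3 WT libraries, with both ITD libraries between, at 13.77 and 14.06%.

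Against ITD alone, no Rab gene separated DKOITD at the threshold. In that comparison 0 of 43 passed (0.212% of all genes did, 0.156% higher and 0.0552% lower), 12 had an unadjusted p under 0.05 (15.7% of all genes) and 16 did not overlap, 6 higher and 10 lower (31.3% of all genes, 17.3% higher and 14.0% lower). For the granule-linked genes the values against ITD were -1.45 ± 0.42 for Rab3d (SE, adjusted p = 0.118), -1.22 ± 0.40 for Rab27a (adjusted p = 0.163), -1.64 ± 0.50 for Rab37 (adjusted p = 0.132) and -1.25 ± 0.61 for Rab44 (adjusted p = 0.354). Rab38 differed by 1.83 ± 0.50 (SE, adjusted p = 0.106) and Rab6a by -1.36 ± 0.39 (SE, adjusted p = 0.111). The endosomal genes that rose against WT gave 0.13 ± 0.87 for Rab7 (SE, adjusted p = 0.970) and -0.01 for Rab5a (adjusted p = 0.996). The comparisons share the DKOITD libraries and are not independent of each other.

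Between ITD and WT, with 2 and 3 libraries, 0 of 43 Rab genes passed (0.0092% of all genes did), 5 had an unadjusted p under 0.05 (7.93% of all genes) and 10 did not overlap, 5 higher and 5 lower (19.1% of all genes, 10.1% higher and 8.99% lower). The smallest p values belonged to Rab5a (1.81 ± 0.56, SE, adjusted p = 0.420) and Rab24 (-1.17 ± 0.39, SE, adjusted p = 0.486), followed by Rab7 (2.66 ± 0.92, SE, adjusted p = 0.498). Rab27a differed by -0.33 ± 0.42 (SE, adjusted p = 0.860).

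Proteins that load, activate, switch off or read Rab proteins were counted from a list of 126 genes, of which 124 were in the table and 102 were tested. Between DKOITD and WT 9 passed (8.82% against 12.7% of all genes), 3 higher and 6 lower. An unadjusted p under 0.05 was found for 25 of the 102 (30.2% of all genes). The split was 16 higher and 3 lower when scaled by recovered reads (2535 and 247 over all genes). With quantile normalization it was 0 higher and 12 lower (678 and 767 over all genes). The 8 genes of the core cycle, which deliver, recycle and prenylate all Rab proteins, gave 0 calls: Gdi2, which extracts Rab proteins from membranes, measured 149 to 183 RPKM in DKOITD, 115 and 132 in ITD and 124 to 160 in WT (0.25 ± 0.24, SE, adjusted p = 0.511), and Chm, the escort protein for prenylation, differed by -0.25 ± 0.52 (SE, adjusted p = 0.772). Of 11 tested partners of Rab27 proteins, Unc13d fell. Unc13d (Munc13-4) binds Rab27a and primes granules for fusion. It measured 1.34, 1.03, 3.49 and 3.21 RPKM in DKOITD, 8.76 and 7.997 in ITD and 6.22, 18.3 and 14.3 in WT. DKOITD lay below every other library, as it did for Rab27a, and Unc13d fell by 2.06 ± 0.50 (SE) (limma, adjusted p = 0.0230), a call lost without DKOITD 1 or WT 2 (adjusted p = 0.0692 and 0.0696).

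The largest fall among partners was that of Ehd1. Ehd1, which shapes recycling endosomes, measured 1.33, 5.24, 4.88 and 8.77 RPKM in DKOITD, 23.1 and 18.7 in ITD and 26.9, 33.9 and 25.6 in WT, and fell by 2.46 ± 0.47 (SE) (limma, adjusted p = 0.00822). Sh3bp5, an exchange factor for Rab11, fell by 2.36 (adjusted p = 0.00936), and Dennd3, an exchange factor for Rab12, fell by 2.35 (adjusted p = 0.0363), the latter not without DKOITD 1, DKOITD 3, WT 1 or WT 2 (adjusted p = 0.0816 to 0.119). Rgp1, part of an exchange factor for Rab6, and Plekhm1, an effector of Rab7, completed the 6. These were chosen after their values were seen, at -1.85 (adjusted p = 0.0252) and -1.64 (adjusted p = 0.0485). Rgp1 was lost without DKOITD 1, DKOITD 3, WT 1 or WT 2 (adjusted p = 0.0634 to 0.0756), and Plekhm1 held without DKOITD 4 or WT 3 and was lost without any of the other 7 libraries (0.065 to 0.139). Rilp, the Rab7 effector that links lysosomes to dynein, was listed at 0 in all libraries but ITD 1 and was not tested. The 3 rises were of TBC-domain proteins, a family that switches Rab proteins off: Tbc1d4 (2.34, adjusted p = 0.0365), Tbc1d19 (1.90, adjusted p = 0.0313) and Tbc1d9 (1.64, adjusted p = 0.0292), out of 34 GTPase-activating proteins tested. Tbc1d9 passed the filter through DKOITD alone, and Tbc1d4 and Tbc1d19 through DKOITD and ITD. No WT library reached 1 RPKM for any of the 3, so against WT they could only differ upwards. All 3 were at most 0.385 RPKM in each WT library. The calls were lost without single libraries: Tbc1d4 without DKOITD 1, DKOITD 3 or any WT library (adjusted p = 0.0608 to 0.102), Tbc1d19 without DKOITD 1, DKOITD 4, WT 1 or WT 2 (0.0614 to 0.0853) and Tbc1d9 without DKOITD 1, 3 or 4, WT 1 or WT 2 (0.0571 to 0.0829). Against ITD and between ITD and WT 0 partners passed (0.212% and 0.0092% of all genes did). In these comparisons 19 and 3 had an unadjusted p under 0.05 (15.7% and 7.93% of all genes).

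**Figure D5:**
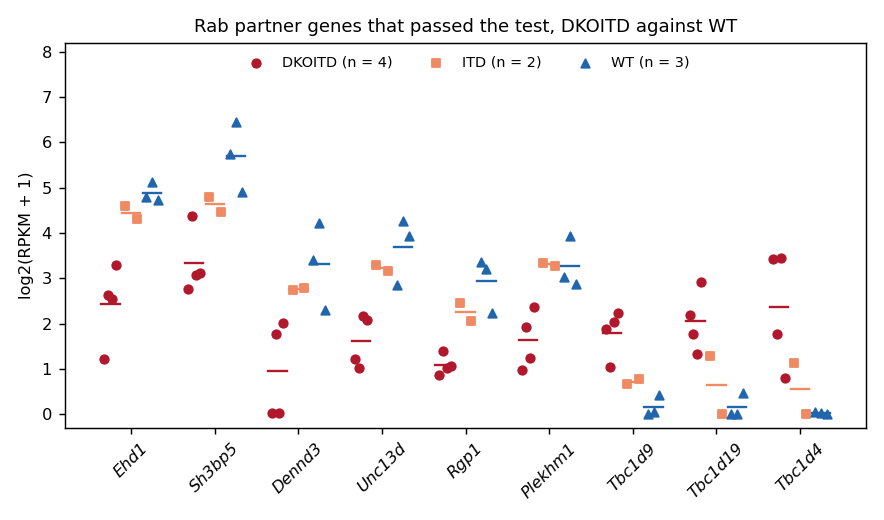
Level of the 9 Rab partner genes that passed DKOITD against WT, on a log2(RPKM + 1) axis, with 1 point per library and a line at each group's mean. The 6 genes on the left were lower in DKOITD, with Ehd1 at 1.33 to 8.77 RPKM against 25.6 to 33.9 in WT, and the 3 on the right were higher.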

How the data were processed

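RNA was sequenced in 9 libraries of 100 sorted Mac1+ bone marrow cells in 3 genotype groups, taken from the sample titles. The authors deposited 1 table of RPKM for 23420 gene symbols. Per the submitters' processing notes, which give neither role nor order, the genome was mm10 and the tools HTSeq 0.6.1p1, STAR 2.4.2a and SAMtools 1.1. The sources used here do not give the annotation, the counting settings or the scaling. RPKM divides by length and depth, but the lengths used are not given, so levels of different genes compare only roughly. In DKOITD 1, Rab27a gave 521 recovered reads at 14.5 RPKM and Rab7 1121 at 149 RPKM. Their GENCODE exons cover 3879 and 2610 bases, which do not give that relation of reads to RPKM.

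Depth was read from the steps of the RPKM values: all 15566 genes above 0 gave whole reads in each library (tolerance 0.0001 reads), from 2824091 to 23114869 reads. The counts are the smallest whole numbers that fit, and a gene above 0 in 1 library alone always gives 1 read. The full share of genes is therefore no test of the recovery. Scaling by recovered reads multiplied each RPKM column by a factor per library, 1.13 to 1.44 in DKOITD and 0.703 to 0.918 in the others. The deposited RPKM was thus lower in DKOITD, and higher in the others, than these reads alone would give. PCR copies cannot be told from separate molecules here.

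Genes reaching 1 RPKM in 2 or more libraries (10868) were fitted as log2(RPKM + 1) with limma 3.58.1 in R 4.3.3 (lmFit, eBayes with trend), all 9 libraries in one fit with group as the only factor. Tests were two-sided with Benjamini-Hochberg adjustment over all genes tested and a threshold of 0.05. "Rose" and "fell" are used of genes past it. Differences understate the change of low genes. The Rab27a to Rab7 ratio was compared with exact permutation tests. Motifs were searched as exact letters on both strands, gene positions and shared exons are from GENCODE vM21, and promoter windows from RefSeq (GRCm38.p6).

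The members and lists were chosen with earlier results of these data known. Classes of Rab genes follow the compartment each is known for. Members named were those past the threshold, the 5 highest and the 2 with the smallest p among the rest, paralogues of the Rab5, Rab7, Rab27 and Rab32 families and those at 0 throughout (Rab7b was not analysed here). Partners named were up to 4 in each direction by size of change, with Unc13d, Rilp, Gdi2 and Chm in every case. Alternatives were a pseudocount of 0.1, no filter, quantile normalization, scaling by recovered reads, a replicate block, the sample-number split as a term and leaving out each library. Leaving out WT 1 and WT 2 together was added after the data were seen. Where a group was left with 1 library, that library is assumed to vary like the others.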

Additional observations from a re-analysis of the deposited data

Results flagged for a closer look

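In a group of 4 libraries, Rab23, a Rab of ciliary and developmental signalling, had 1 library far from the others. DKOITD 4 measured 2.781 RPKM, while the other 3 DKOITD libraries measured 1.20 to 1.39. On the log2(RPKM + 1) scale the gap took 0.846 of the range of the group, above Dixon's 95% critical value, which chance exceeds in about 1 in 20 groups. That rate holds for a single gene, and Rab23 was not chosen in advance. Among 43 tested members such a gap can arise by chance. Rab23 passed no comparison, and WT ranged from 0.453 to 3.99.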

How the results depend on the processing

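Of the 13 Rab calls between DKOITD and WT, 0 changed direction in 208 refits, each call counted once per setting. Dropping the filter or an ITD library cannot alter these differences, so such refits could not change direction. Apart from Rab7, no called gene overlapped between DKOITD and WT. For these genes, leaving out DKOITD or WT libraries or changing the pseudocount could not turn the sign either. With every single library left out 4 calls held (Rab24, Rab2b, Rab39 and Rab3d) and 9 did not. The count of 13 (6 higher, 7 lower) became 7 (3 and 4) with no filter, 11 (8 and 3) with scaling by recovered reads and 0 (0 and 0) with the sample-number split as a term. Without both WT 1 and WT 2, which leaves WT 3 alone, fewer Rab genes and partners passed, and so did fewer of all genes. Leaving out single libraries gave 5 to 13 calls (2 to 6 higher, 2 to 7 lower), with 5 without DKOITD 1 or DKOITD 3, 7 without WT 1 and 6 without WT 2. The share called over all genes also moved, from 12.7% (30.2% of Rab genes) to 4.71% with no filter (13.7%). It was 5.72% without DKOITD 1 and 5.1% without DKOITD 3 (11.6% of Rab genes in each). Without WT 1 it was 9.69% (16.3%) and without WT 2 7.12% (14.0%). Against ITD the count of 0 became 1 with no filter (1 lower) and 1 with scaling (1 higher), and 0 to 1 with a library left out (0 to 1 higher). Between ITD and WT it became 1 with no filter (1 higher) and 0 to 1 with a library left out. The 9 partner calls (3 higher, 6 lower) became 5 with no filter, 19 (16 and 3) with scaling and 12 (0 and 12) with quantile normalization. They became 0 with the sample-number term and 2 to 11 with a library left out. The ratio of Rab27a to Rab7 between DKOITD and WT ranged from -5.89 to -3.26 with a library left out (exact permutation p = 0.0667 to 0.1, where that is the smallest possible) and was -1.23 without both WT libraries. Signs turned for genes that passed no test: Chm in DKOITD against WT was 0.38 with scaling and ran from -0.733 to 0.0774 with a library left out (without WT 2 and without WT 1), and Rab27a in ITD against WT was 0.0477 without WT 2. The cause of these shifts was not tested. Over all genes, 1380 calls became 4 with the sample-number term.

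Deviations from the group means correlated at -0.04 to 0.07 between libraries that share a replicate number, and at -0.13 to 0.17 between the others. With so few libraries in a group these deviations are tied to each other, so the correlations cannot decide whether equal numbers share an origin. The numbers were used here to name libraries. With the replicate block 11 Rab genes (3 higher) and 5 partners passed, that is 25.6% of Rab genes beside 8.13% of all genes. No other library shares the replicate number of DKOITD 4, so the block takes up that library and it adds nothing to the differences. Rab7 against ITD was -0.52 with the block. Depth limits low members most in DKOITD 2.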
